A study of Mus with 2 samples.

Results

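Slpi, Wfdc17, Lcn2, Saa3, Hp and Cpxm1 are 6 of the 32285 genes counted in spatial transcriptome profiles of mouse CT26 tumors. They encode secreted proteins of antimicrobial and acute-phase defense, with Cpxm1 as a secreted carboxypeptidase-like companion. The 6 genes were selected on their measured levels: their higher counts in the section of the mouse given recombinant IL-7 (rIL7) were known from earlier work with the same files, so that difference describes the choice and supports nothing by itself. CT26 is a colon carcinoma line of Balb/c origin. In both groups 200000 CT26 cells had been transplanted into Balb/c mice of 6 to 8 weeks, and the tumors were collected on day 15 and cut at 10 µm. The rIL7 mouse had received 10 µg of rIL7 into the peritoneum on days 11 and 13, and the control mouse phosphate-buffered saline. Each group was 1 section of 1 tumor, so no difference below has a replicate check, no test was run, and every interval is a 95% counting interval that leaves out differences between mice, tumors and sections.

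Secretory leukocyte protease inhibitor (Slpi) and Wfdc17 carry the whey acidic protein (WAP) fold, and Slpi blocks serine proteases of neutrophils and mast cells such as elastase and cathepsin G. Lipocalin 2 (Lcn2) withholds iron from bacteria by binding their siderophores, serum amyloid A3 (Saa3) is the amyloid A form made outside the liver, and haptoglobin (Hp) binds free haemoglobin. During an acute-phase response, interleukin-6 and interleukin-1 signals raise such proteins in liver, fat, epithelia and myeloid cells, where they limit microbial growth, protease damage and iron release. Wfdc17 is known from activated macrophages, and Cpxm1 belongs to the carboxypeptidase E-N family but lacks residues needed for catalysis and binds collagen.

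The assay was Visium, which captures polyadenylated RNA of a frozen section on a grid of barcoded spots and counts each molecule once by a unique molecular identifier (UMI). A spot can hold several cells of different types, and fewer cells of a type and less RNA per cell cannot be told apart. After filtering, 2219 control spots held 22951678 UMIs (median 9623 per spot) and 1950 rIL7 spots held 25729233 (median 12921.5). Levels are UMIs per 1000000 UMIs of the same spots (CPM) and are compared between places for a gene, not between genes. The sections shared 1702 spot barcodes, which come from the fixed barcode set of the slides. CT26 markers were present in both tissues, with Rpl39l at 432 CPM in the control tumor and 379 CPM in the rIL7 tumor and Baiap2l1 at 861 and 664 CPM. Keratinocyte genes differed in presence: Krt5 had 196 UMIs in the control tumor and 0 in the rIL7 tumor, and Krt14 had 250 and 1.

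Slpi (ENSMUSG00000017002, chr2:164354070-164356507 in the RefSeq annotation of GRCm38) had 132 UMIs in the control section, or 5.75 CPM (4.81 to 6.82), and 963 UMIs in the rIL7 tumor, or 37.4 CPM (35.1 to 39.9), a 6.51-fold difference (5.42 to 7.87). Each section was also cut into 4 quadrants, along the median row and the median column of its spots, to describe the spread within it. The 4 control quadrants lay at 5.26, 5.85, 10.6 and 3.10 CPM and the 4 rIL7 quadrants at 80.5, 20.7, 25.0 and 18.6 CPM, so they did not overlap, although the first rIL7 quadrant stood far above the other 3. No share of all genes with quadrants apart is given, and the 6 genes were chosen as higher in rIL7. Quadrants that do not overlap, here and below, are therefore description and no result.

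Wfdc17 (ENSMUSG00000069792, chr11:83704056-83706269) was the gene of the 6 with most UMIs, 1071 in the control tumor and 3549 in the rIL7 tumor. Its level was 46.7 CPM (43.9 to 49.5) and 138 CPM (133 to 143), a 2.96-fold difference (2.76 to 3.17), with quadrants of 34.3 to 55.6 CPM and 104 to 184 CPM. Cpxm1 (ENSMUSG00000027408, chr2:130390775-130397629) had 157 and 991 UMIs, or 6.84 CPM (5.81 to 8.00) and 38.5 CPM (36.2 to 41.0), a 5.63-fold difference (4.75 to 6.71). Its control quadrants were uneven, from 3.23 to 17.5 CPM, and still below the rIL7 quadrants of 24.3 to 49.8 CPM.

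The 3 acute-phase proteins had fewer UMIs than the other 3 genes in the rIL7 tumor, whereas in the control tumor Hp had more than Slpi and Cpxm1. Lcn2 (ENSMUSG00000026822, chr2:32384637-32387739) had 54 UMIs in the control tumor and 335 in the rIL7 tumor, 2.35 CPM (1.77 to 3.07) and 13.0 CPM (11.7 to 14.5), 5.53-fold apart (4.14 to 7.52). Saa3 (ENSMUSG00000040026, chr7:46711998-46719615) had 24 and 232 UMIs, 1.05 CPM (0.670 to 1.56) and 9.02 CPM (7.89 to 10.3), and its 8.62-fold difference had the widest interval (5.65 to 13.7). Hp (ENSMUSG00000031722, chr8:109575128-109579172) had 192 and 469 UMIs, 8.37 CPM (7.22 to 9.64) and 18.2 CPM (16.6 to 20), the smallest of the 6 differences at 2.18-fold (1.84 to 2.59). Quadrants of the sections did not overlap for any of the 3, the closest pair being 10.1 CPM in the control tumor and 11.7 CPM in the rIL7 tumor for Hp.

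**Figure D1:**
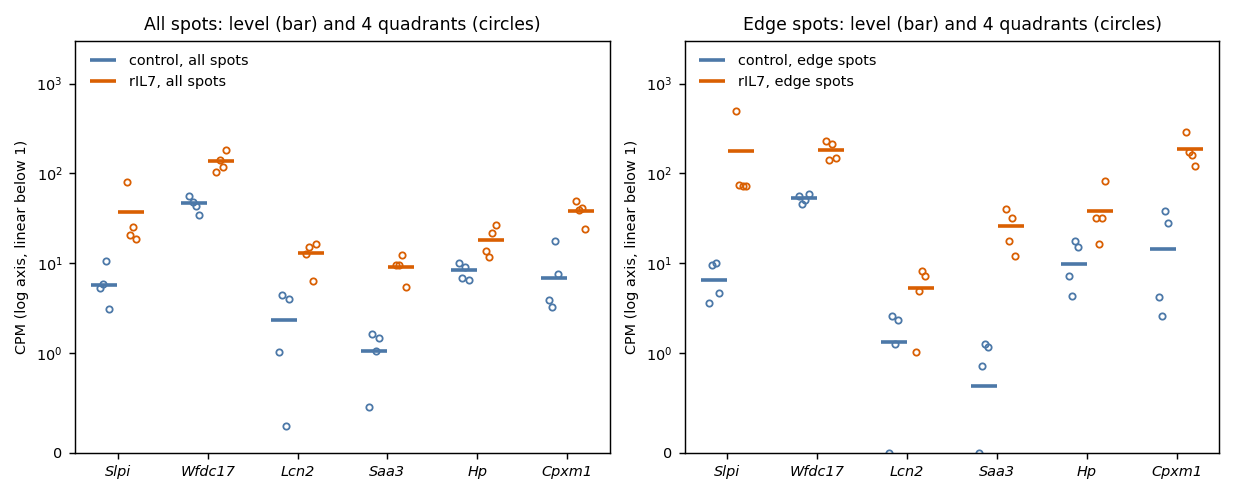
CPM of the 6 genes (y axis, logarithmic above 1) in all spots (left) and in edge spots (right) of the control and rIL7 sections; bars give the level of the section and circles its 4 quadrants, which are not replicates. Over all spots the quadrants of the sections are apart for the 6 genes, while at the edge those of Lcn2 and Hp overlap. The genes were chosen as higher in rIL7 and no share over all genes is given, so this is description.

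All 6 genes passed a mean of 5 CPM over both sections and were at least 2-fold higher in rIL7, which is how they had been chosen; 1.46% of the 10721 genes past that mean were (157 genes). At a mean of at least 20 CPM, Slpi, Wfdc17 and Cpxm1 remained and were among the 63 of 7613 genes (0.828%) at least 2-fold higher. The median log2 ratio over all genes past 5 CPM was -0.0047.

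The distance from the tissue outline and the relation to collagen had been named together with the genes when they were chosen, so the places below are descriptions as well. Edge spots were those up to 2 grid steps inward from the outline of the main piece of tissue (401 of the control and 330 of the rIL7 section), and interior spots the remainder of that piece (1806 and 1599). Slpi of the rIL7 section was a transcript of the rim: 700 of its UMIs lay at the edge, at 178 CPM (165 to 192), and 244 in the interior, at 11.3 CPM (9.91 to 12.8), 15.8-fold apart (log2 3.98, 3.77 to 4.20). In the control section the edge held 6.49 CPM (4.34 to 9.32) and the interior 5.6 CPM (4.57 to 6.79), a log2 ratio of 0.21 with an interval of -0.44 to 0.82. Edge spots alone therefore gave a rIL7-over-control difference of 27.5-fold (19.0 to 41.4), and interior spots alone 2.01-fold (1.59 to 2.56). The 2 edges were not alike, so ratios between them, here and below, do not compare like with like. At the control edge Krt5 held 36.9 CPM (0.435 CPM inside) and Krt14 44.5 CPM (0.707 CPM inside), while the rIL7 section had 0 and 1 UMIs of them. The part of this in the ratios was not tested.

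The fall with depth was steep. In the rIL7 section Slpi stood at 295 CPM (270 to 321) in the outermost ring of spots, at 78.2 CPM (66.7 to 91.1) in the second, and at 18.2 CPM (12.5 to 25.6) in the third. From the fourth ring inward it stayed between 8.19 and 14.4 CPM. The control section showed no such gradient, with 5.8 CPM in the first ring, 2.21 CPM in the fourth and 7.05 CPM in the deepest spots, 14 to 22 steps from the outline.

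Cpxm1 shared this rim in the rIL7 tumor and was the only one of the 6 with a clear rim in the control section too. At the rIL7 edge it reached 186 CPM (173 to 200) against 10.3 CPM (9.0 to 11.8) in the interior, an 18.0-fold difference, and its rings fell from 263 CPM to 120, 44.1, 17.9 and 10.9 CPM over the first 6 steps. In the control section it reached 14.3 CPM (11.0 to 18.3) at the edge and 5.00 CPM (4.03 to 6.14) inside, 2.86-fold higher. That control rim was uneven, since its 4 edge quadrants held 4.21, 2.61, 37.7 and 27.8 CPM, against 287, 171, 159 and 120 CPM in the rIL7 tumor.

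Saa3 and Hp followed at a lower slope. Saa3 had 102 UMIs at the rIL7 edge, or 26.0 CPM (21.2 to 31.6), and 104 in the interior, or 4.81 CPM (3.93 to 5.83), a 5.41-fold difference. Only 3 of its control UMIs lay at the edge (0.671 CPM, 0.138 to 1.96), and the control log2 ratio of -0.77 had an interval from -3.16 to 0.98. Hp stood at 38.5 CPM (32.6 to 45.1) at the rIL7 edge and 12.2 CPM (10.8 to 13.8) in the interior, 3.15-fold higher, and at 9.84 and 8.05 CPM in the control section. Between sections, interior spots alone gave 4.21-fold for Saa3 (2.62 to 7.09) and 1.52-fold for Hp (1.24 to 1.87), and edge spots alone 38.7-fold (12.9 to 191) and 3.91-fold (2.78 to 5.6).

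Wfdc17 and Lcn2 were arranged differently. Wfdc17 of the rIL7 section was high in the outermost ring, at 256 CPM, fell to 87.7 CPM in the fourth ring and was high again deep in the tumor, at 164 CPM in steps 10 to 13 and 148 CPM beyond, so that edge and interior differed only 1.43-fold (184 CPM, 171 to 198, and 128 CPM, 123 to 133). In the control section it had no such second rise at depth: it lay between 43.9 and 57.0 CPM over the first 9 steps, at 39.8 CPM in steps 10 to 13 and at 28.2 CPM in the deepest spots. Lcn2 was lower at the rIL7 edge, at 5.35 CPM (3.31 to 8.18), than in the interior, at 14.4 CPM (12.9 to 16.1), a 2.70-fold difference. Its level was highest in the deepest spots of both sections, 27.6 CPM in the rIL7 and 8.01 CPM in the control section. The interior alone kept the Wfdc17 difference between sections at 2.84-fold (2.62 to 3.07) and that of Lcn2 at 5.53-fold (4.07 to 7.65).

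**Figure D2:**
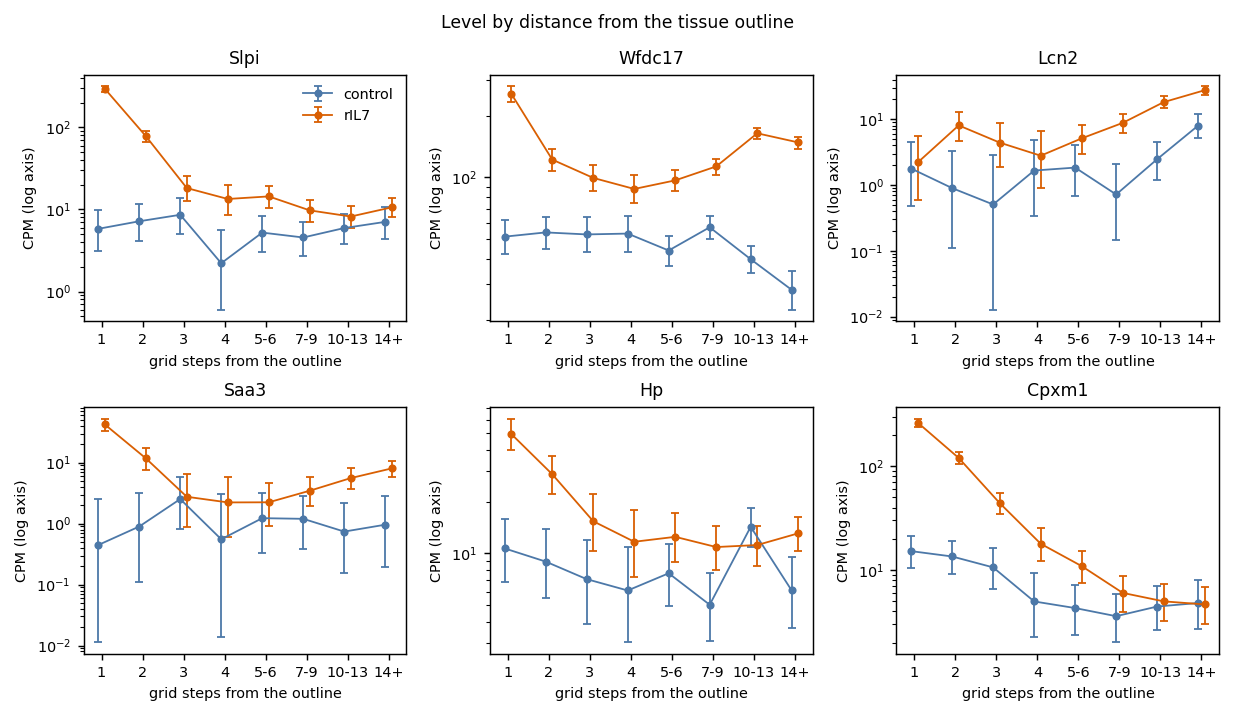
CPM of each gene (y axis, logarithmic) by grid steps from the tissue outline (x axis) in both sections; points are sums over all spots of a ring and bars 95% Poisson counting intervals. Slpi, Cpxm1, Saa3 and Hp are highest in the first ring of the rIL7 section, Lcn2 is highest in its deepest spots, and Wfdc17 is highest in the first ring (256 CPM) with a second rise at steps 10 to 13 (164 CPM).

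Of the 6 genes, all past a mean of 5 CPM over the edge and interior of the rIL7 section, Slpi, Saa3, Hp and Cpxm1 were at least 2-fold higher at the edge, as were 4.49% of the 10822 genes past that mean, and Lcn2 was at least 2-fold lower, as were 1.02%. In the control section 4 of the genes passed the mean and Cpxm1 was 2-fold higher at the edge, beside 0.262% of 10675 genes. At the rIL7 edge other genes were higher as well: all 10 T cell markers and 4 of 8 collagen genes passed 2-fold, whereas the CT26 marker sum was lower, at 757 CPM against 1096 CPM in the interior. The keratinocyte list had 1 of its 10 genes past the mean there, with a sum of 33.1 CPM at the edge and 41.1 CPM inside, and of the milk protein genes in a list for mammary and skin glands Csn1s1 and Csn2 had 0 UMIs in either section.

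In the rIL7 section Slpi was also the most unevenly spread of the 6, while in the control section its variance-to-mean ratio of UMIs over spots (1.14) was below those of Hp (1.67), Wfdc17 (1.45) and Cpxm1 (1.39). A UMI of it was found in 121 control spots (5.45%, 4.55 to 6.48, Clopper-Pearson) and 355 rIL7 spots (18.2%, 16.5 to 20), or in 2.44% and 9.15% of spots once each had been thinned to 5000 UMIs. No control spot held more than 3. In the rIL7 section 1 spot held 75 UMIs, and the 20 richest spots (1% of the section) were all at the edge and held 50.7% of all Slpi UMIs. Of these 20 spots 13 lay in 1 quadrant and 15 touched another of them, so that the edge of that quadrant reached 496 CPM. The edge of the other 3 quadrants held 73.9, 72.4 and 71.6 CPM, which was still above every control edge quadrant (3.61 to 10.1 CPM).

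The other genes were less concentrated. The 20 richest spots of the rIL7 section held 34.9% of Saa3, 28.8% of Hp, 23.0% of Lcn2, 20.5% of Cpxm1 and 10.4% of Wfdc17 UMIs. For Cpxm1 18 of the 20 lay at the edge, for Saa3 13, and for Hp 9, whereas 18 of those of Wfdc17 and 19 of those of Lcn2 lay in the interior. A single spot outside the main piece of tissue held 39 Hp UMIs, 8.32% of the gene's total, and another held 14 of the Saa3 UMIs. Wfdc17 was the widest spread, with a UMI in 69.5% of rIL7 spots (67.4 to 71.5) and 33.8% of control spots (31.8 to 35.8), or 41.6% and 19.7% after thinning.

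**Figure D3:**
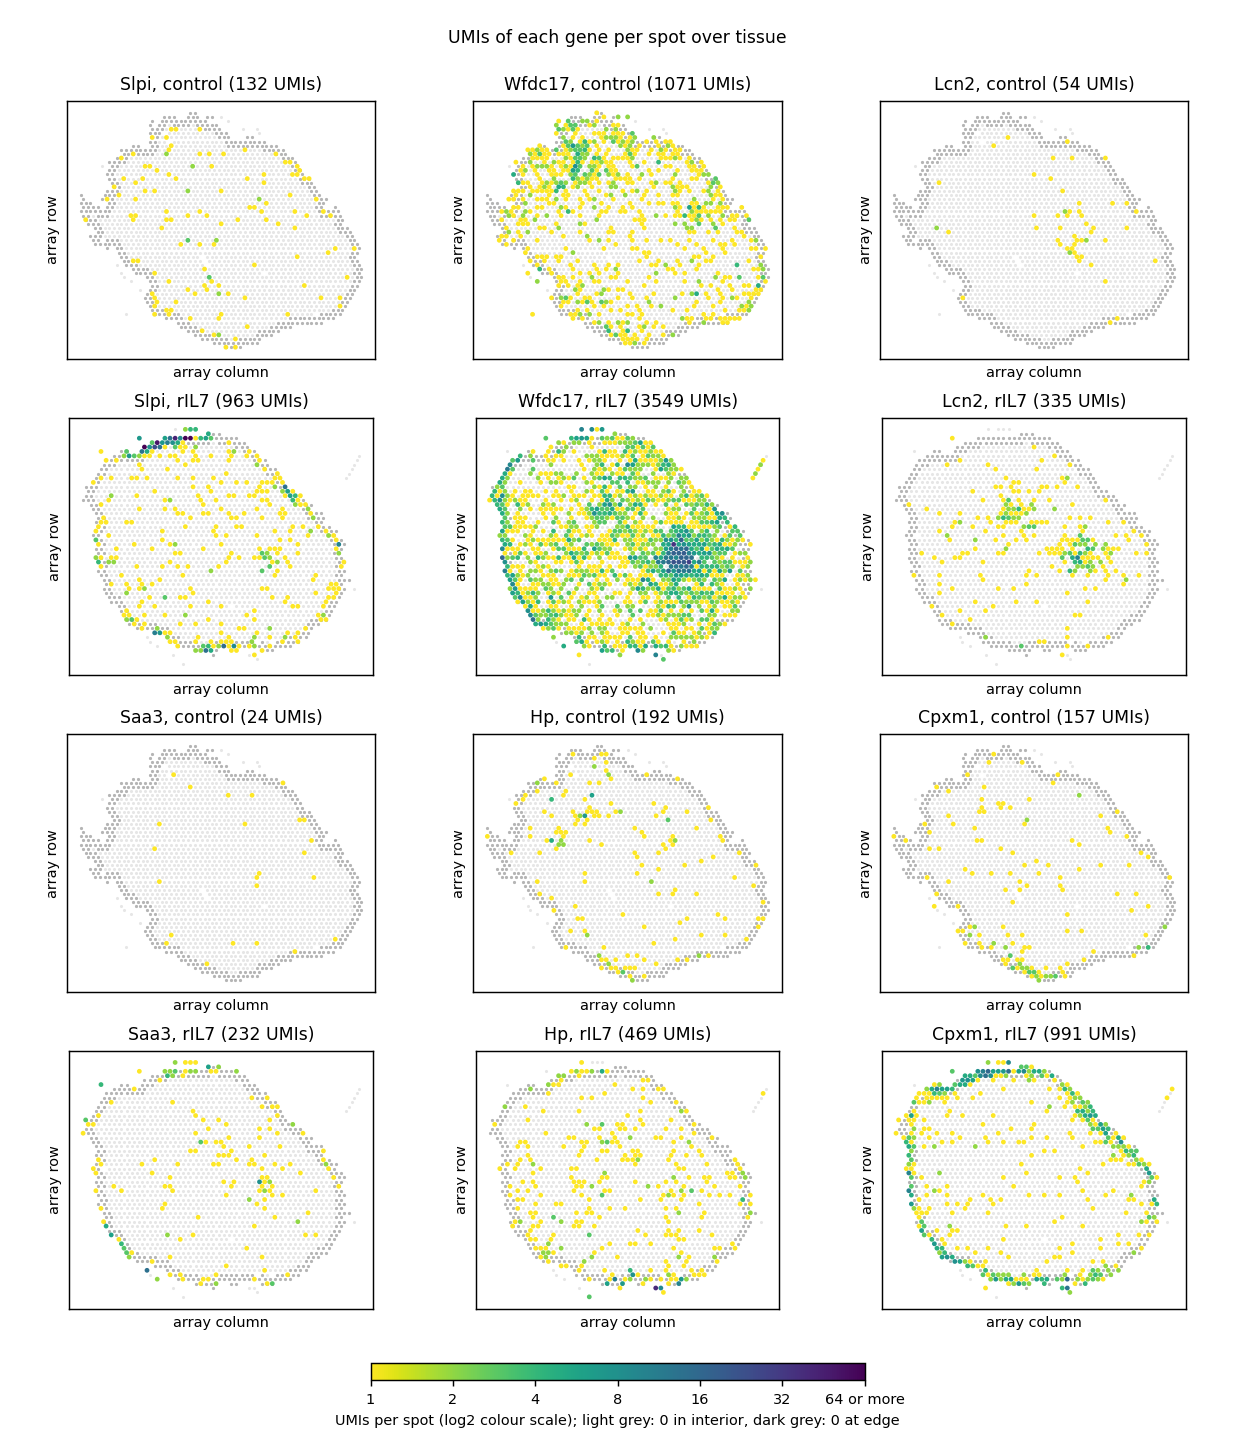
UMIs of each gene in every spot of the control and rIL7 sections, drawn at its array row and column; colour gives UMIs on a log2 scale, and spots at 0 are light grey in the interior and dark grey at the edge. Slpi and Cpxm1 line the outline of the rIL7 section, Slpi most densely along 1 stretch with up to 75 UMIs in a spot, while the spots with most Wfdc17 and Lcn2 UMIs lie mostly inside the tumor.

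The relation to collagen was examined in collagen-rich spots, the 10% of each section with the highest share of UMIs from 8 collagen genes (222 control and 195 rIL7 spots). These were not alike in the sections: 27% lay at the edge in the control tumor and 71.8% in the rIL7 tumor, and collagen reached 3050 CPM in them in the control tumor and 5285 CPM in the rIL7 tumor. The cut fell between 2683 and 2682 collagen CPM in the control tumor and between 3151 and 3131 in the rIL7 tumor. In the rIL7 section Slpi stood at 238 CPM (219 to 259) in collagen-rich spots and 17.4 CPM (15.7 to 19.1) in the others, 13.7-fold higher, and Cpxm1 at 232 CPM (213 to 252) and 19.2 CPM (17.4 to 21.0), 12.1-fold higher. Saa3 was 9.65-fold higher (48.7 and 5.05 CPM), Hp 3.63-fold (53.4 and 14.7 CPM) and Wfdc17 1.67-fold (217 and 130 CPM). Lcn2 was 4.69-fold lower, with 7 UMIs in collagen-rich spots (2.99 CPM, 1.20 to 6.16) and 328 elsewhere (14.0 CPM, 12.5 to 15.6).

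Among all genes past a mean of 5 CPM in this split of the rIL7 section, 3.04% of 10856 were at least 2-fold higher in collagen-rich spots, as were Slpi, Saa3, Hp and Cpxm1 of the 6, and 0.801% were at least 2-fold lower, as was Lcn2. In the control section 0.475% of 10746 genes were at least 2-fold higher, and of the 4 genes past the mean Cpxm1 was, at 18.0 CPM (12.9 to 24.6) against 5.64 CPM (4.67 to 6.76). Control Slpi held 6.76 CPM in collagen-rich and 5.64 CPM in other spots, a log2 ratio of 0.26 (-0.62 to 1.04).

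**Figure D4:**
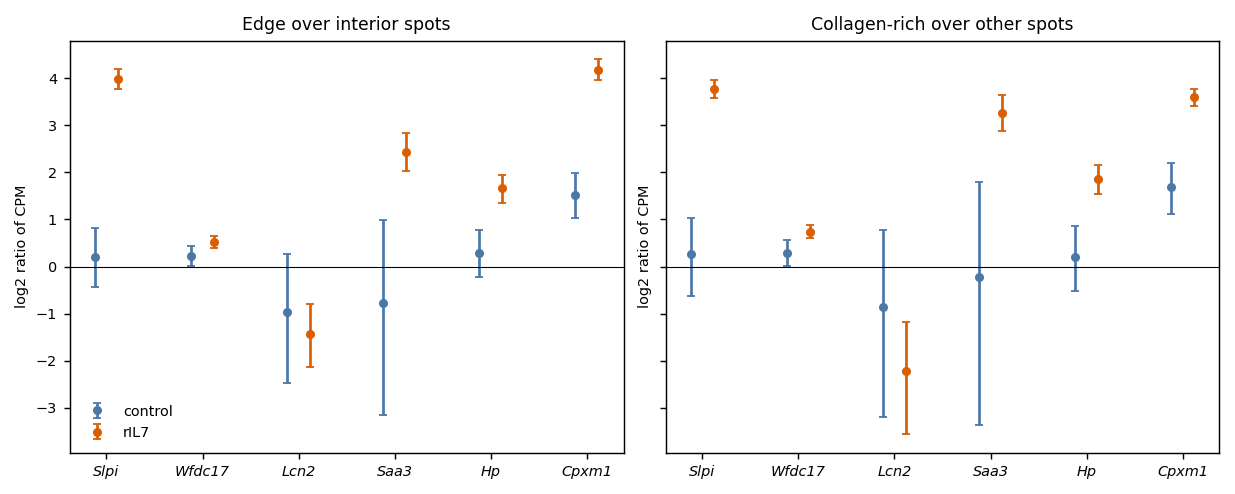
Log2 ratios of CPM (y axis) for edge over interior spots (left) and for collagen-rich over other spots (right) in both sections; points are ratios of sums and bars 95% exact binomial counting intervals. In the rIL7 section Slpi, Saa3, Hp and Cpxm1 lie above 1 and Lcn2 below -1 in both panels, and in the control section the whole interval of Cpxm1 lies above 1.

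Because collagen-rich spots and the edge overlapped in the rIL7 tumor, the split by collagen was repeated within each. At the edge Slpi remained 4.04-fold higher in collagen-rich spots (310 CPM, 284 to 338, and 76.7 CPM, 65.6 to 89.2). In the interior it had 8 UMIs in 36 collagen-rich spots (16.8 CPM, 7.25 to 33.1) and 11.2 CPM elsewhere, a log2 ratio of 0.59 with an interval of -0.64 to 1.59. Cpxm1 was higher in collagen-rich spots in both places, 2.40-fold at the edge (277 and 116 CPM) and 7.17-fold in the interior (65.1 CPM, 44.2 to 92.4, and 9.08 CPM, 7.84 to 10.5). Outside collagen-rich spots the edge was still above the interior for Slpi (76.7 and 11.2 CPM), Cpxm1 (116 and 9.08 CPM) and Hp (37.9 and 12.2 CPM).

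Saa3 differed from these in that its rim lay in collagen. At the rIL7 edge it held 50.9 CPM (40.8 to 62.8) in collagen-rich spots and 6.77 CPM (3.79 to 11.2) in the others, 7.52-fold apart, and outside collagen-rich spots edge and interior (4.87 CPM) had a log2 ratio of 0.48 (-0.41 to 1.26). In the interior 1 UMI fell in collagen-rich spots, at 2.10 CPM (0.0532 to 11.7). Hp showed the reverse: at the edge collagen-rich and other spots stood at 39.2 and 37.9 CPM, a log2 ratio of 0.049 (-0.44 to 0.53), so its higher level in collagen-rich spots of the whole section was not seen within the edge. Without the spots outside the main piece the collagen log2 ratio of Hp was 1.17 in place of 1.86. In the control edge the 60 collagen-rich spots held 8 Slpi UMIs (18.5 CPM, 7.98 to 36.4) against 5.20 CPM (3.22 to 7.95) in the rest, and Cpxm1 50.8 CPM (31.9 to 77) against 10.4 CPM (7.50 to 14.1).

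Distance from collagen gave the same order for Slpi and Cpxm1 in the rIL7 tumor. Since 71.8% of its collagen-rich spots lay at the edge and these values were not split by edge, distance and depth are not separated. Slpi fell from 238 CPM in collagen-rich spots to 39.9 CPM in spots next to them, 26.6 CPM at 2 steps, 15.0 CPM at 3 to 4 steps and 9.81 CPM farther away, and Cpxm1 from 232 to 60.2, 29.7, 14.8 and 7.12 CPM. Saa3 dropped at once, from 48.7 CPM to 5.38 CPM in neighbouring spots. Lcn2 climbed from 2.99 to 21.2 CPM. Wfdc17 fell and rose again, at 217, 123, 102, 126 and 142 CPM over the same distances. In the control section Lcn2 also was highest farthest from collagen, at 6.89 CPM (4.15 to 10.8), where Slpi was lowest, at 2.18 CPM (0.799 to 4.74).

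Genes with the most similar distribution over spots were sought by Pearson's r of square-root CPM, each spot averaged with its neighbours, over the 1950 rIL7 spots and 9951 genes. Neighbouring spots share reads in this average and all spots share a library, so r is a description. The genes most like Slpi were Igkc (r = 0.87), Jchain (0.83), Ighg2c (0.82) and Ighg2b (0.74), which encode antibody chains made by plasma cells and the chain that joins antibody multimers, followed by Cpxm1 (0.63). Immunoglobulin constant genes are near-identical copies in part, so their single values are uncertain. Cpxm1 was closest to Bgn (0.77), a matrix proteoglycan, Cxcl12 (0.71), a stromal chemokine, and Col1a1 (0.70), and Saa3 to Pi16 (0.45), a marker of adventitial fibroblasts, and Col1a1 (0.44).

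Hp was closest to Cfd (0.61) and Fabp4 (0.47), which fat cells secrete or use to carry fatty acids. Of the 245 Cfd UMIs of the rIL7 section 89 lay at the edge and 32 in the interior. The remainder fell in the 21 spots outside the main piece, which also held the spot richest in Hp. These spots were part of r, and r without them was not computed. Wfdc17 was closest to the macrophage chemokines Ccl6 (0.72) and Pf4 (0.66) and the lysosomal protease Ctsb (0.67). Lcn2 was closest to the neutrophil attractant Cxcl5 (0.55), to Hmox1 (0.53), which degrades heme, and to Fth1 (0.48), which stores iron. Among the 6 genes r was 0.63 for Slpi with Cpxm1 and at most 0.34 for any other pair, and in the control section no gene reached more than 0.24 with Slpi.

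The antibody genes were followed further, a step taken after this likeness was seen, so a higher Slpi level beside them follows from the choice. Summed over 11 genes, immunoglobulin transcripts numbered 700 UMIs in the control tumor and 7555 in the rIL7 tumor. The sums differed in make-up: Ighm had 558 control and 699 rIL7 UMIs (1.12-fold by CPM), whereas Igkc had 37 and 3228. Immunoglobulin-rich spots of the control section therefore rest mostly on Ighm. The 10% of rIL7 spots with the highest share of them (195 spots) held 83.7% of these UMIs, 141 of them lay at the edge, and 85 were also collagen-rich. Within the edge, Slpi stood at 469 CPM (433 to 507) in immunoglobulin-rich spots and 26.8 CPM (20.8 to 33.9) in the others, 17.5-fold apart. All of the 20 richest Slpi spots were immunoglobulin-rich, and the top 5, with 75, 70, 69, 51 and 42 Slpi UMIs, held 623, 350, 247, 664 and 323 immunoglobulin UMIs.

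Crossing both classes within the edge separated the genes. Slpi reached 813 CPM (743 to 888) in the 64 spots rich in both, 183 CPM (154 to 217) in the 77 rich in immunoglobulin alone, 31.0 CPM (21.4 to 43.3) in the 76 rich in collagen alone and 23.7 CPM (16.5 to 32.9) in the 113 rich in neither. Outside immunoglobulin-rich spots, collagen-rich and other edge spots had a Slpi log2 ratio of 0.39 (-0.34 to 1.11). The immunoglobulin class was followed for its likeness to Slpi, and it held 496 of the 530 Slpi UMIs of collagen-rich edge spots. That ratio therefore cannot separate collagen from immunoglobulin and is a description. Cpxm1 was higher with either class (448, 221, 183 and 62.9 CPM in the same order), and Saa3 held 77.1, 16.3, 36.4 and 2.03 CPM. Hp was higher with immunoglobulin and not with collagen alone, at 86.9, 59.7, 12.7 and 27.1 CPM. Wfdc17 was highest in spots rich in collagen alone, at 262 CPM (233 to 294), against 149 to 166 CPM in the other classes.

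**Figure D5:**
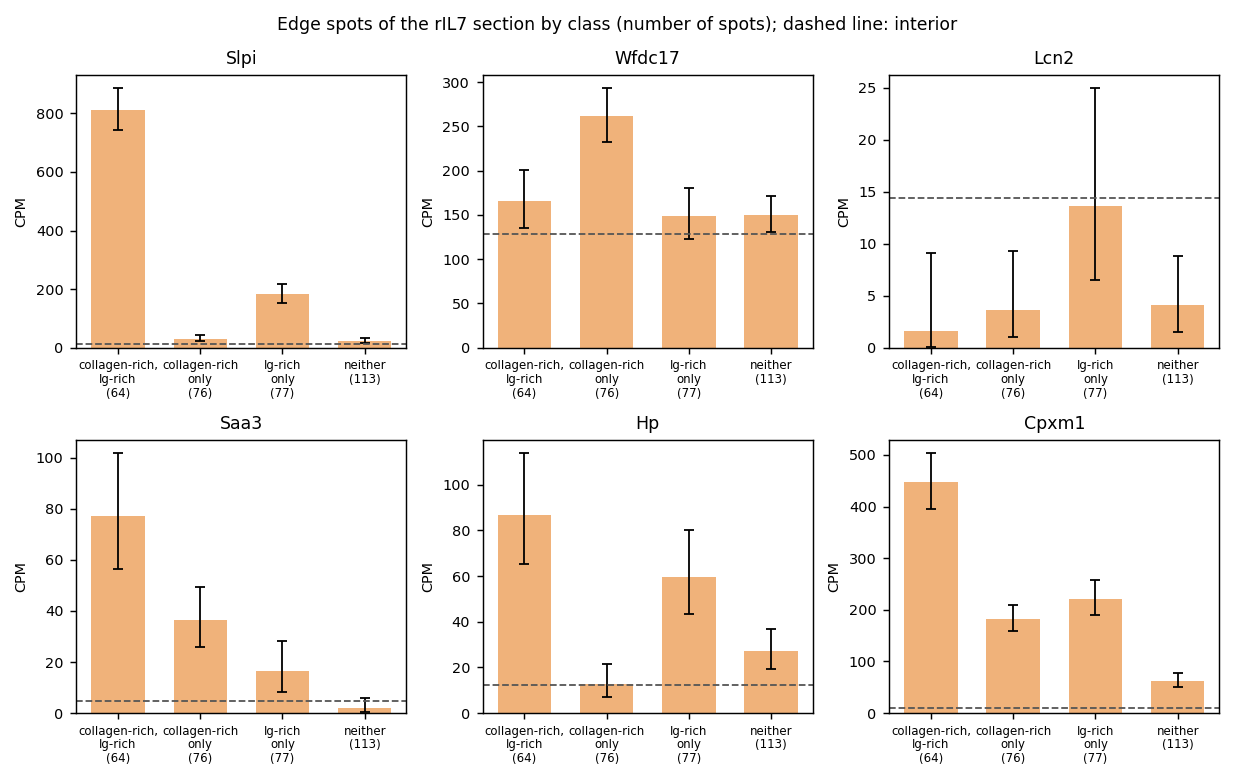
CPM (y axis) of each gene in the edge spots of the rIL7 section, divided by whether a spot was collagen-rich, immunoglobulin-rich (Ig-rich), both or neither (number of spots in parentheses); bars are levels, error bars 95% Poisson counting intervals and the dashed line the interior. Slpi is highest where both classes meet (813 CPM) and Wfdc17 in spots rich in collagen alone (262 CPM).

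Many but not all markers of other cells moved with the rim, and their part in the levels of these genes was not tested. Of 9 B and plasma cell markers 3 passed the mean and 2 were at least 2-fold higher at the rIL7 edge, with a list sum of 173 CPM at the edge and 88.6 CPM inside. Among them Jchain had 221 of its 265 UMIs there, while the mature B cell marker Ms4a1 had 2 UMIs in the whole section. Of 10 adipocyte markers 3 passed the mean in the rIL7 split and 2 were higher at the edge (sum 240 and 114 CPM). The defining fat genes were few, with Adipoq at 2 control and 23 rIL7 UMIs and Plin1 at 2 and 14. Adventitial fibroblast markers passed 2-fold in 4 of 6 genes past the mean, with a list sum of 761 CPM at the edge and 697 CPM inside. Macrophage markers passed it in 1 of 10, although their sum was 3842 CPM at the edge and 2238 CPM inside. Endothelial markers passed it in 3 of 5 (sum 149 and 64.8 CPM), dendritic cell markers in 3 of 6 (290 and 234 CPM), monocyte markers in 3 of 6 (325 and 166 CPM) and fibroblast markers in 4 of 11 (1101 and 1054 CPM). Other fibroblast markers were lower at the edge, among them Dcn (273 and 333 CPM), Pdgfra (130 and 234 CPM), Pdpn (124 and 157 CPM) and Dpt (78.2 and 96.0 CPM). T cell markers, higher in 10 of 10 at the edge (472 and 145 CPM), were also at least 2-fold higher in the rIL7 tumor than in the control tumor in 6 of 7 genes past the mean (197 and 81.7 CPM). Spot depth moved as well, in opposite directions: its median was 11165.5 UMIs at the edge and 13162 in the interior of the rIL7 section, and 10901 and 9482 in the control section.

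Neutrophil markers, like Lcn2, were lower in sum at the rIL7 edge. Their sum was 204 CPM at the rIL7 edge and 261 CPM in the interior, and 252 CPM in the rIL7 and 141 CPM in the control section, with 3 of 10 genes past the mean and none of the 3 at 2-fold in either comparison. The sum was mostly S100a9 (1977 control and 4207 rIL7 UMIs), while the granulocyte genes Ly6g and Ngp had 0 UMIs in both sections and Camp 1 and 0. Other genes of the list were present, with Csf3r at 421 control and 579 rIL7 UMIs and Cxcr2 at 80 and 89. Unlike the sum, Csf3r was higher at the rIL7 edge (28.8 CPM) than inside (21.4 CPM).

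The interior held a place of its own for several of the 6 genes. Around the rIL7 spot with most Wfdc17 UMIs, the 61 interior spots within 4 steps were compared with the other 1538 interior spots, a choice made on Wfdc17 after its map had been seen. Wfdc17 stood there at 430 CPM against 111 CPM, which is what chose the place. Lcn2 was 6.21-fold higher in it (69.8 and 11.2 CPM, log2 2.63, 2.25 to 3.0), and Saa3 5.23-fold (20.4 and 3.91 CPM, log2 2.39, 1.66 to 3.06). Slpi was 1.81-fold higher, with 23 UMIs (19.6 and 10.8 CPM, log2 0.86, 0.17 to 1.48), and Hp (16.2 and 12 CPM) and Cpxm1 (5.11 and 10.6 CPM) had intervals that included no difference. Hmox1 was 13.3-fold higher there (905 and 68.2 CPM), and the neutrophil list sum 2.55-fold (615 and 241 CPM), while collagen was lower (1263 and 1697 CPM). Spots of this place were deeper, with a median of 18866 UMIs against 13001.

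Of the related genes, a list of 28 acute-phase proteins includes Lcn2, Saa3 and Hp, which had been chosen for their higher level in rIL7. Among the 25 others 7 passed a mean of 5 CPM over both sections, 5 were at least 2-fold higher in rIL7, beside 1.46% of all genes, and none lower, with a median log2 ratio of 1.07. The 5 were the serine protease inhibitors Serpina3g and Serpina3f, whose close copies make single values uncertain, the complement regulator Serping1, Cp and C3. C3, the central complement component, stood at 50 CPM in the control tumor and 245 CPM in the rIL7 tumor (4.89-fold), Serpina3g at 107 and 224 CPM, and Serping1 at 20.8 and 41.8 CPM. The iron-oxidising ceruloplasmin (Cp) was 2.16-fold higher in rIL7 (11.6 and 25.2 CPM) and, like Lcn2, lower at its edge (16.1 CPM) than inside (26.6 CPM). Cd14, a receptor for bacterial lipopolysaccharide, differed by 1.03-fold (69.1 and 71.2 CPM). Some acute-phase proteins known mainly from the liver were at or near 0, with 0 UMIs in either section for Saa2, Fga, Fgb, Fgg, Crp and Apcs and with 0 and 2 for Saa1 and Orm1. Others of the list were present, such as C3 and Cp above and Hpx with 45 control and 47 rIL7 UMIs.

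At the rIL7 edge 9 of the 25 passed the mean, 5 were at least 2-fold higher and none lower, with a median log2 ratio of 1.61 beside -0.049 over all genes. C3 held 683 CPM at the edge and 160 CPM inside, Serping1 140 and 20.9 CPM, and Lrg1, a leucine-rich acute-phase glycoprotein, 41.5 and 13.6 CPM. Lbp, which carries lipopolysaccharide to Cd14 and is named here after its values were seen, had 85 UMIs at the edge and 28 inside, 16.7-fold apart, and was 21.5-fold higher in collagen-rich spots. The control section had 6 of the 25 past the mean at its edge, and 0 of them were 2-fold higher or lower.

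In the WAP family Slpi and Wfdc17 were the only members with both a mean of 5 CPM and a 2-fold difference between sections. Of 24 family genes in the annotation 3 passed the mean, and the remaining one, Wfdc13, was lower in rIL7, at 10.5 and 6.92 CPM. Wfdc2, also an epithelial WAP protein, had 33 and 17 UMIs, Wfdc21 had 22 and 44, and Wfikkn1 had 77 and 53. Wfdc13 did not share the rim, with 6.12 CPM at the rIL7 edge and 7.07 CPM inside. Wfdc21, below the mean, was 5.51-fold higher at the rIL7 edge (4.33 and 0.786 CPM, log2 2.46, 1.40 to 3.52).

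The proteases that Slpi inhibits were scarce or not higher in rIL7. Elane, neutrophil elastase, had 0 UMIs in either section, which allows up to 3 UMIs in each, and Ctsg, cathepsin G, had 22 and 32. The mast cell proteases Tpsb2 (14.7 CPM in the control tumor and 9.33 CPM in the rIL7 tumor) and Cma1 (10.8 and 7.35 CPM) were lower in rIL7, although at its edge Tpsb2 was 2.83-fold and Cma1 3.28-fold above the interior. Grn, the progranulin that Slpi protects from cleavage, stood at 596 and 557 CPM, and Tgm2, a transglutaminase that can crosslink Slpi to matrix, at 44.1 and 125 CPM, the 1 gene of 7 past the mean that was 2-fold higher in rIL7. Of the binding partners Anxa2 held 807 and 1059 CPM and Plscr1 29.8 and 32.8 CPM.

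Among signals that induce acute-phase genes, most of those past the mean were less than 2-fold apart between sections. Of 22 inducers and regulators 18 passed the mean, with a median log2 ratio of 0.14. Of these, 1 was at least 2-fold higher in rIL7, beside 1.46% of all genes, and none lower. Il6, which encodes interleukin-6, had 90 control and 189 rIL7 UMIs and Socs3 1767 and 3468, while Il11 had 895 and 706. These 3 counts are not scaled to the section totals. Il1b stood at 132 CPM in the control tumor and 167 CPM in the rIL7 tumor, its receptor Il1r1 at 140 and 155 CPM, and Stat3, which carries the interleukin-6 signal, at 153 and 167 CPM. Cebpd, a transcription factor of acute-phase genes, was at 360 and 504 CPM, and Cebpb at 241 and 146 CPM. The cytokine past the mean and 2-fold was Osm (3.44 and 8.55 CPM), and Il1a, below the mean, had 6 and 53 UMIs (7.88-fold), both named after their values were seen. At the rIL7 edge Cebpd was 2.27-fold and the oncostatin M receptor Osmr 2.26-fold lower than inside, while Tnf, also named after its values were seen, was 3.43-fold higher (20.6 and 6.01 CPM).

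Among receptors and partners of acute-phase proteins, 8 of 12 passed the mean and 3 were 2-fold higher in rIL7. Hmox1, which degrades the heme released from haemoglobin, stood at 18.7 and 104 CPM (5.55-fold), and Mmp9, the matrix protease that Lcn2 binds, at 47.3 and 134 CPM (2.83-fold). The third was Cd163, the receptor of Hp bound to haemoglobin, at 8.10 and 19.2 CPM, named here after its values were seen. At the rIL7 edge Hmox1 was 2.14-fold lower than inside, as Lcn2 was lower there, and Mmp9 held 152 and 130 CPM, while Tlr2 (31.3 and 12.3 CPM) and Fpr2 (31.1 and 11.4 CPM) were 2.56-fold and 2.72-fold higher. Between sections Tlr2, a receptor for bacterial lipoproteins, and the formyl peptide receptor Fpr2, both also known to bind serum amyloid A, stood at 15.7 and 15.1 CPM and at 16.2 and 14.4 CPM (control first).

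Other antimicrobial proteins did not pass 2-fold between sections in any of the 7 genes past the mean. Below the mean some did: Lyz1 had 12 control and 103 rIL7 UMIs (7.66-fold), Ptx3 0 and 47, and Reg3g 1 and 26. Chil3 (6 and 4 UMIs) and Camp (1 and 0) went the other way. These low genes were named after their values were seen. Lyz2, lysozyme of macrophages, held 1364 CPM in the control tumor and 2031 CPM in the rIL7 tumor, and the calprotectin subunits S100a8 and S100a9 31.0 and 60.7 CPM and 86.1 and 164 CPM. Of the 8 genes past the mean at the rIL7 edge and interior, 2 were at least 2-fold higher at the edge and none lower, with a median log2 ratio of 0.66. These were Lyz1 (17.8 and 1.34 CPM), a lysozyme whose close likeness to Lyz2 makes its value uncertain, and the oxidase subunit Cybb (174 and 63.1 CPM). Lyz2 held 3104 CPM there and 1828 CPM inside, and S100a8 48.4 and 63.1 CPM. Among the carboxypeptidase E-N family genes named here Cpxm1 stood alone: Cpe (275 and 246 CPM), Aebp1 (289 and 308 CPM), Cpd (39.6 and 39.0 CPM) and Cpz (5.62 and 4.28 CPM) differed by less than 2-fold between sections, and Aebp1, a relative that also binds collagen, held 305 CPM at the rIL7 edge and 308 CPM inside.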

How the data were processed

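Visium libraries of 2 tumor sections (1 control, 1 rIL7) were analysed. Per the labels and methods, the authors made the deposited raw UMI counts with Space Ranger 1.1.0 on mm10; barcodes, gene names and spot positions (other deposited items) were used as given, and image scale factors were not. Members and gene lists were chosen with earlier results of these data known, and the immunoglobulin list and the interior place around Wfdc17 after seeing the data. Spots with under 10% mitochondrial UMIs and over 200 genes were kept. CPM are summed UMIs per 1000000. Intervals (95%) are exact Poisson for levels and Clopper-Pearson for shares and ratios, a gene at 0 being set to 3 UMIs in a ratio, and cover counting error only. Named genes are the 6 members, up to 6 genes with most UMIs (at least 50) of each list, and the 5 most like each member with at least 100 UMIs, among genes of at least 200. Genes named outside this rule (markers at or near 0, further genes past 2-fold, and Il6, Socs3, Il11 and Hpx) were chosen after their values were seen. Gene positions matched by symbol. Ratios were checked on simulated counts. Tools were Python 3.11.15 (scipy 1.17.1), edgeR 4.0.16 and DESeq2 1.42.0, the last 2 for scaling alternatives only. Alternatives covered spot filter, scaling, spot weights, edge width and collagen cutoff.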

Additional observations from a re-analysis of the deposited data

Results flagged for a closer look

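Saa3 had opposite directions in the sections under both splits: at the edge over the interior its log2 ratio was 2.43 in the rIL7 and -0.77 (-3.16 to 0.98) in the control section, and in collagen-rich over other spots 3.27 and -0.23 (-3.37 to 1.79). The control directions turned with the setting, to 0.35 with an edge of 3 steps and, for collagen, to 2.22 in edge spots alone. The difference was not tested, and both control values rest on 24 UMIs with intervals that include 0.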

How the results depend on the processing

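Of the 234 values recomputed, every one for rIL7 over control kept its direction; 48 of those 66 stayed inside the counting interval, among them all those with every spot kept, with spots of over 1000 genes, with TMM or DESeq2 scaling, and with mitochondrial, ribosomal protein and haemoglobin genes left out of the totals. Leaving out immunoglobulin-rich spots or spots outside the main piece was chosen after seeing the data. For rIL7 over control (log2), interior spots alone gave Slpi 1.01, Saa3 2.07, Hp 0.60 and Cpxm1 1.04; edge spots alone 4.78, 5.28, 1.97 and 3.70, Wfdc17 1.81 and Lcn2 2.00. Leaving out collagen-rich spots gave Slpi 1.62, Saa3 2.25, Hp 0.83 and Cpxm1 1.76, leaving out immunoglobulin-rich spots Slpi 1.23, Hp 0.73 and Cpxm1 1.69, and equal weights for spots Lcn2 1.85.

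For edge over interior in rIL7, an edge of 1 step gave Wfdc17 1.0, Lcn2 -2.65, Saa3 2.97 and Cpxm1 3.71, and of 3 steps Slpi 3.59, Wfdc17 0.27 and Saa3 1.90. Without collagen-rich spots Slpi had 2.78, Wfdc17 0.23, Saa3 0.48 and Cpxm1 3.67, and without immunoglobulin-rich spots Slpi 1.32, Saa3 1.78, Hp 0.78 and Cpxm1 3.60. Equal weights gave Slpi 4.36 and Saa3 3.09, and in the control Hp 0.79 and Cpxm1 2.07. An outline inside the capture frame left every value as it was.

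For collagen-rich over other spots in rIL7, the top 5% gave Slpi 4.45, Saa3 3.94 and Hp 2.67, and the top 20% Slpi 2.95, Wfdc17 0.46, Saa3 2.36, Hp 1.21 and Cpxm1 3.35. Interior spots alone gave Slpi 0.59, Wfdc17 0.048 and Cpxm1 2.84 and turned Saa3 to -1.21 (1 UMI) and Hp to -0.22; edge spots alone gave Slpi 2.02, Wfdc17 0.60, Hp 0.049 and Cpxm1 1.26. Without immunoglobulin-rich spots Slpi had 1.12 and Saa3 2.67, and Hp turned to -0.069; the main piece alone gave Hp 1.17, and equal weights Wfdc17 0.94 and Saa3 4.10. In the control the top 5% gave Slpi 1.06 and Cpxm1 2.49, equal weights Slpi 1.11, and edge spots alone Slpi 1.83, Lcn2 0.90, Saa3 2.22, Hp 1.26 and Cpxm1 2.29. The cause of these moves was not tested.

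Spearman's rho across spots was weak: thinning to 3000 in place of 5000 UMIs turned Slpi with immunoglobulin in the control to -0.027 and with neutrophil genes in rIL7 to -0.019. Depth limits the control most, where Saa3 rests on 24 UMIs and Lcn2 on 54. No paired analysis was possible because each group is 1 section.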
